A study of Saccharomyces cerevisiae with 6 samples.

Results

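The heme genes described here are the 8 budding yeast enzymes that build heme (HEM1, HEM2, HEM3, HEM4, HEM12, HEM13, HEM14 and HEM15), COX10, which starts the conversion of heme B to heme A, and HMX1, which breaks heme down. Members were taken by standard gene name, and each was matched through its open reading frame to 1 probe among the 6256 on the array. All 10 were found and all 10 were among the 5890 genes tested. They were compared between BH13, a Saccharomyces cerevisiae mutant with better resistance to the lignin-derived phenolic aldehyde coniferyl aldehyde, and the reference strain, called REF here. Both strains were grown without treatment at 30 °C and 150 rpm in minimal medium and harvested in log phase at an optical density of about 1.0. The labels name BH13 as a single mutant strain and give no allele for either strain. Each strain had 3 samples of total RNA, each labelled with Cy3 and read on its own one-colour array. Nothing in the labels says that the 3 were started as separate cultures. The p-values therefore reflect only how these samples vary, and that variation may be technical.

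Heme is an iron-holding ring that cytochromes, catalases and several oxygenases need in order to work. Its synthesis in yeast starts in the mitochondrion, moves to the cytosol for the middle steps and returns to the mitochondrion, where iron is inserted. In yeast heme also acts as a signal of oxygen, through the activator Hap1 and the repressor Rox1, and iron from heme can be recovered by heme oxygenase when iron is scarce.

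Values below are log2 processed signal minus the array's own 75th percentile, so 0 is the level of that percentile. Differences are BH13 minus REF on the log2 scale ± limma's standard error (n = 3 per strain), and their precision is limited by how few arrays there were. The 75th percentile lay between 2301 and 2888 intensity units on the BH13 arrays and between 2707 and 4905 on the REF arrays, with the highest on REF replicate 2. Array correlations across the tested genes were 0.994 to 0.998 within a strain and 0.854 to 0.877 between strains, and genes are not independent replicates. The BH13 arrays lay on 1 slide and the REF arrays on 2 other slides scanned on another day, so strain and scan day cannot be told apart. Markers of the a mating type and of cells past log phase differed between the strains. All 7 a-cell markers were lower in BH13, with a summed signal of 0.276 to 0.285 times the 75th percentile against 7.53 to 7.86 in REF, and 2 of them, MFA2 and AGA2, were never well above background in BH13. Of 10 post-diauxic markers 9 were higher and 1, ADH2, was lower, by 0.86 ± 0.30 (limma adjusted p = 0.0282). Their summed signal was 30.8 to 33.9 in BH13 against 1.12 to 1.39 in REF. Most of the BH13 sum came from HSP26, HSP12 and GPH1, which read 2.90 or more on every BH13 array, so it does not describe the whole list. The part of these states in the results below was not tested.

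Transcripts of 6 heme genes were lower in BH13, 3 were higher and 1 was not called. HEM12 fell by 2.57 ± 0.12, which is 5.94 times lower than in REF and the largest decrease among them. HEM3, COX10, HEM4, HEM1 and HEM13 were also lower, while HEM14, HMX1 and HEM15 were higher. HEM2 did not pass the test. By limma with Benjamini-Hochberg adjustment at 0.05, 81.3% of all tested genes were called, 38.0% higher and 43.3% lower. The 9 called of 10 members lie near that background, so the share called is not a result about these genes. The median difference of the 10 members was -0.54, against -0.07 over all genes tested. The 4 members called with at least 2-fold differences were HEM12, HEM3, COX10 and HEM14, against 35.5% of all genes. With normexp background correction or cyclic loess scaling only HEM12 and HEM14 of these passed 2-fold, 2 members in place of 4. COX10 alone fell below 2-fold, leaving 3 members, in more settings. These were median centring (-0.97), quantile scaling (-0.93), and leaving out BH13 replicate 1 (-0.95) or REF replicate 2 (-0.97).

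**Figure D1:**
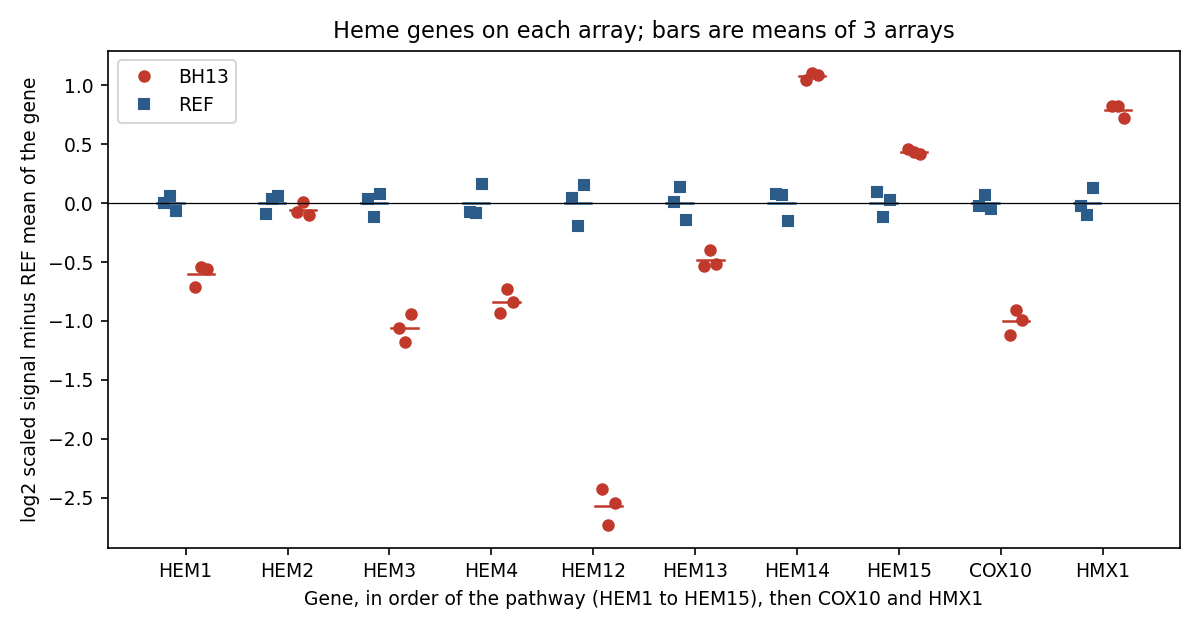
Log2 scaled signal of each heme gene on every array, minus that gene's mean over the 3 REF arrays, with genes in pathway order. Circles are BH13 arrays, squares are REF arrays and short bars are means of 3. The BH13 values of HEM12 lie furthest below REF, those of HEM14 furthest above, and only for HEM2 do the strains overlap.

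The first enzyme of the pathway, HEM1, was lower in BH13. HEM1 encodes 5-aminolevulinate synthase, which joins glycine and succinyl-CoA in the mitochondrial matrix. Its values were 1.26, 1.43 and 1.42 on the BH13 arrays and 1.98, 2.04 and 1.90 on the REF arrays. Every BH13 value lay below every REF value, by at least 0.47. The difference was -0.60 ± 0.08 (limma adjusted p = 0.000149), or 1.52 times lower.

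HEM2, which encodes aminolevulinate dehydratase, the enzyme that pairs aminolevulinate molecules into porphobilinogen, did not differ beyond its spread. Its values were 0.60, 0.69 and 0.57 in BH13 and 0.58, 0.71 and 0.73 in REF. The ranges of the strains overlapped. The difference of -0.05 ± 0.08 had a 95% interval from -0.23 to 0.13 (limma adjusted p = 0.539), so a difference of this size in either direction was not detectable here. Only 4.53% of tested genes had a smaller absolute difference.

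HEM3 and HEM4, which act in turn to build the porphyrin ring, were both lower. HEM3 encodes porphobilinogen deaminase, with values of -1.44, -1.56 and -1.32 in BH13 and -0.34, -0.50 and -0.29 in REF. The lowest REF array was 0.82 above the highest BH13 array. The difference was -1.06 ± 0.09 (limma adjusted p = 9.73e-06), or 2.09 times lower. HEM4 encodes uroporphyrinogen III synthase, which closes the ring. It read -2.39, -2.18 and -2.29 in BH13 and -1.52, -1.53 and -1.29 in REF, again without overlap. The difference was -0.84 ± 0.10 (limma adjusted p = 5.89e-05), or 1.79 times lower.

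HEM12 stood apart from the other members in size. It encodes uroporphyrinogen decarboxylase, which trims the side chains of uroporphyrinogen to give coproporphyrinogen. Its values were -2.73, -3.03 and -2.85 on the BH13 arrays and -0.26, -0.50 and -0.14 on the REF arrays, so that 2.23 separated the nearest arrays of the strains. The difference was -2.57 ± 0.12, with a 95% interval from -2.84 to -2.30 (limma adjusted p = 2.63e-07). Of all tested genes 94.4% had a smaller absolute difference. Before scaling, HEM12 read 281 to 436 intensity units in BH13 and 2337 to 3483 in REF. On the same processed signal, negative control spots had a mean of 4.29 to 6.49 units in BH13 and 2.60 to 3.74 in REF. On another measure, median signal minus local background median, their mean was 34.4 to 38.8 units in BH13 and -3.85 to 3.11 in REF. HEM12 was well above background on all 6 arrays, and the 2 spots of its probe differed by at most 0.127 on the log2 scale on any array. With normexp background correction, an alternative that handles dim signals differently, the difference was -2.36.

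HEM13, coproporphyrinogen oxidase, was lower by a smaller amount. This cytosolic enzyme uses molecular oxygen, and in yeast its gene is known for being repressed by heme through Rox1. It read -1.06, -0.92 and -1.04 in BH13 and -0.51, -0.38 and -0.67 in REF. The strains were separated by 0.25 at their nearest arrays. The difference was -0.48 ± 0.09 (limma adjusted p = 0.00135), or 1.40 times lower, and 36.8% of tested genes had a smaller absolute difference.

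The last synthesis steps, both mitochondrial, were higher in BH13. HEM14 encodes protoporphyrinogen oxidase, which makes the fully conjugated ring. Its values were -0.54, -0.49 and -0.50 in BH13 and -1.51, -1.52 and -1.74 in REF, without overlap. The difference was 1.08 ± 0.09 (limma adjusted p = 5.65e-06), or 2.11 times higher. HEM15 encodes ferrochelatase, which inserts iron into the ring. It read 0.43, 0.41 and 0.39 in BH13 and 0.07, -0.15 and -0.0022 in REF, with 0.32 between the nearest arrays. The difference was 0.44 ± 0.08 (limma adjusted p = 0.000982), or 1.35 times higher. By compartment, 4 of the 5 cytosolic enzymes were lower and none was higher, and of the 4 mitochondrial enzymes, COX10 included, 2 were lower and 2 were higher. Over all tested genes 43.3% were lower and 38.0% higher, and the difference between compartments was not tested.

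**Figure D2:**
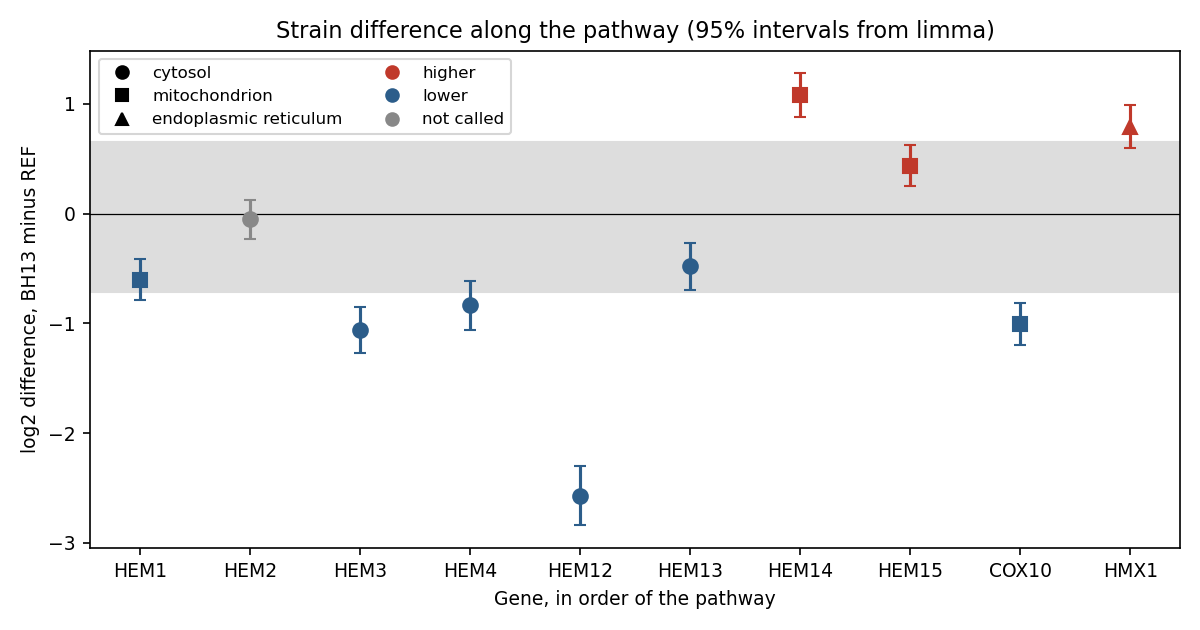
Log2 difference between BH13 and REF for each heme gene, in pathway order, with 95% intervals from limma. Circles are cytosolic, squares mitochondrial and the triangle endoplasmic reticulum enzymes, and red, blue and grey mark higher, lower and not called. The grey band spans the middle of all tested genes, from the lower quartile of -0.72 to the upper quartile of 0.65.

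COX10 fell and HMX1 rose. COX10 encodes the farnesyltransferase that makes heme O, the precursor of the heme A held by cytochrome c oxidase. It read -3.21, -3.0 and -3.08 in BH13 and -2.11, -2.02 and -2.14 in REF. No BH13 array reached any REF array. The difference was -1.005 ± 0.08 (limma adjusted p = 6.97e-06), or 2.01 times lower. Its signal of 275 to 313 intensity units in BH13 was dim, and with normexp background correction the difference was -0.79. HMX1 encodes the heme oxygenase of the endoplasmic reticulum, which opens the ring and frees its iron, and in yeast it belongs to the genes activated by the iron sensor Aft1. Its values were 0.83, 0.83 and 0.74 in BH13 and -0.02, -0.10 and 0.14 in REF. The BH13 arrays were all above the REF arrays, by at least 0.60. The difference was 0.79 ± 0.08 (limma adjusted p = 3.50e-05), or 1.73 times higher.

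The scaling mattered for the genes that were higher. Before scaling, the BH13 and REF intensities of the 6 genes called lower did not overlap, whereas those of HEM14, HEM15 and HMX1 did. The 75th percentile was 2707 to 4905 units on the REF arrays and 2301 to 2888 on the BH13 arrays. Unscaled values thus tend to read lower in BH13 for any gene. The share of all tested genes without overlap before scaling was not computed, so this contrast gives the lower genes no added support. HEM14 read 1643 to 1980 units in BH13 and 810 to 1714 in REF. HMX1 read 3869 to 5149 units in BH13 and 2761 to 4589 in REF. REF replicate 2, the array with the highest 75th percentile, held the highest REF value in each case. After scaling, 9 of 10 members had no overlap between strains, near the 83.7% of all tested genes.

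Neighbours in the order of differences could not be told apart by a test here. The within-array difference between 2 members was compared between strains for the 9 neighbouring pairs, with an exact two-sided permutation test whose smallest possible p is 0.1. HEM12 and HEM3, the lowest pair, were 1.51 apart and their within-array values did not overlap between strains (exact permutation p = 0.1, adjusted over the 9 pairs 0.15). HEM3 and COX10 were 0.06 apart, COX10 and HEM4 0.17, and HEM1 and HEM13 0.12, and in these 3 pairs the strains overlapped (adjusted p = 0.257 to 0.5 by the exact permutation test). With normexp background correction these gaps were 0.19, 0.10 and 0.10. The other 6 pairs, HEM12 with HEM3 included, did not overlap. With 3 arrays per strain no pair could pass 0.05. The pairs were also set by ranking the differences that were compared, so the test cannot separate any pair. The share of all gene pairs without overlap was not computed.

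Along the pathway itself the strain difference changed most around HEM12. From HEM4 to HEM12 it moved by -1.74, from HEM12 to HEM13 by 2.09 and from HEM13 to HEM14 by 1.56. From HEM1 to HEM2 the move was 0.55, from HEM2 to HEM3 -1.01, from HEM3 to HEM4 0.23 and from HEM14 to HEM15 -0.64. In all 7 steps the within-array values of the strains did not overlap, and each had the smallest p of the exact permutation test, 0.1. The share of all gene pairs without overlap was not computed. Of single tested genes 83.7% did not overlap, and the steps were compared after their values were seen. The count of 7 is therefore not a result about this pathway.

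HEM13 and HEM12 lie close together on chromosome IV, with RPC11 and BAP3 between them in the RefSeq gene order. The 4 genes did not move together. RPC11, a subunit of RNA polymerase III, rose by 1.56 ± 0.12 (limma adjusted p = 4.03e-06). BAP3, an amino acid permease gene that is divergent from HEM12 and so shares an intergenic region with it, rose by 2.11 ± 0.12 (limma adjusted p = 9.85e-07). BAP3 read -1.25, -1.09 and -1.01 in BH13 and -3.43, -3.28 and -2.98 in REF. On the same arrays, its direction was opposite to that of HEM12. On the far side of HEM12, VMS1, which acts in the handling of stalled ribosomes, had a difference of 0.18 ± 0.08 and was not called (limma adjusted p = 0.0648). NRG1, a repressor of glucose-repressed genes that is divergent from HEM13, fell by 1.17 ± 0.10 (limma adjusted p = 1.13e-05), in the same direction as HEM13.

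**Figure D3:**
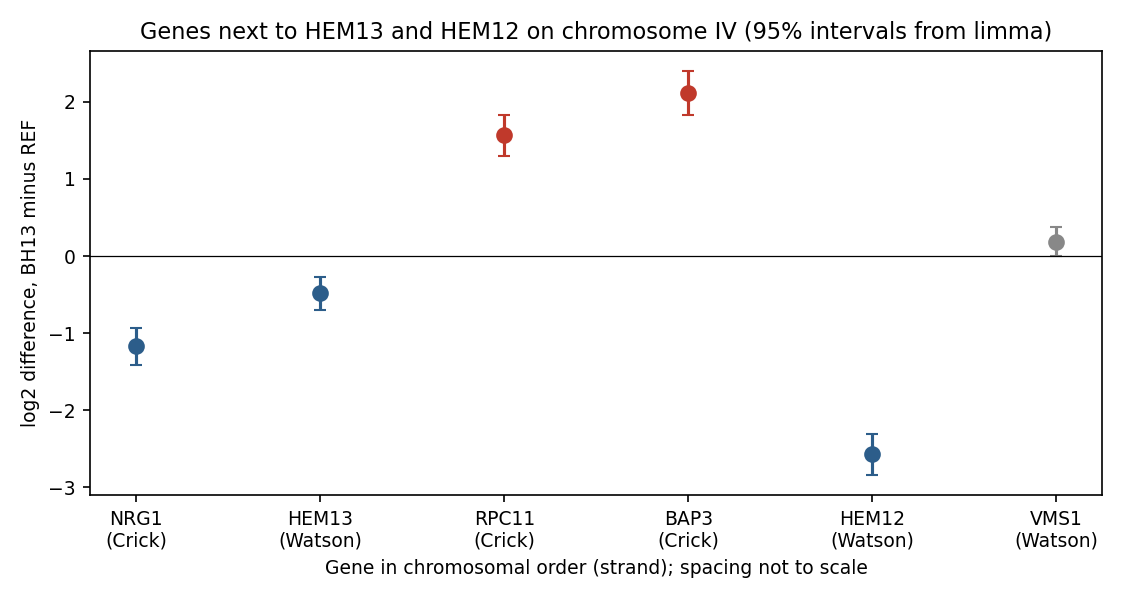
Log2 difference between BH13 and REF for the 6 adjacent genes from NRG1 to VMS1 on chromosome IV, with 95% intervals from limma and the strand of each gene under its name. Red, blue and grey mark higher, lower and not called. RPC11 and BAP3 are higher in BH13, and HEM13 and HEM12 on either side of them are lower.

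Among 17 genes that feed, branch from or deliver heme, 3 were higher, 10 lower and 4 not called, and their median was -0.27. Thus 76.5% were called, against 81.3% of all tested genes. The count lower depended on the scaling, with 8 after median centring and 6 after cyclic loess. DAP1, a heme-binding protein that assists the sterol cytochrome P450 Erg11, rose by 2.34 ± 0.08. MRS4, a mitochondrial iron carrier, rose by 1.22 ± 0.10, whereas its paralog MRS3 fell by 0.57 ± 0.08. MET8, which acts in making siroheme, on a branch from the ring that HEM4 closes, fell by 0.87 ± 0.09. MET1, of the same branch, had a difference of -0.18 and was not called (limma adjusted p = 0.134). HEM25, the mitochondrial carrier that brings in glycine for HEM1, was higher by 0.25 ± 0.09 (limma adjusted p = 0.0367). COX15, which follows COX10 in making heme A, had a difference of -0.12 and was not called (limma adjusted p = 0.366).

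Of 15 regulators of heme, oxygen and iron genes 5 were higher and 8 lower, and the 86.7% called lay near the 81.3% of all tested genes. HAP4, the limiting subunit of the activator of respiratory genes, rose by 1.43 ± 0.08 (limma adjusted p = 5.69e-07). HAP4 read 1.10, 1.06 and 1.19 in BH13 and -0.37, -0.26 and -0.31 in REF. HAP1, the heme-sensing activator, fell by 0.30 ± 0.08 (limma adjusted p = 0.00756) and ROX1, the hypoxic repressor, rose by 0.48 ± 0.11 (limma adjusted p = 0.00329). These are transcript levels of the regulators and not their activity. AFT1, the main activator of iron uptake, fell by 1.19 ± 0.08, and its paralog AFT2 fell by 0.37 ± 0.07. YAP5, a sensor of high iron, rose by 1.92 ± 0.09, and UPC2, a sterol-sensing activator, fell by 1.40 ± 0.12.

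Of 18 genes for proteins that hold heme, 9 were higher, 5 lower and 4 not called, with a median of 0.21. The 77.8% called again lay near the share of all tested genes. CYC7, the hypoxic cytochrome c, rose by 7.98 ± 0.17, and CTT1, the cytosolic catalase, rose by 3.71 ± 0.21. CYC7 read 2.25, 2.12 and 2.29 in BH13 and -5.98, -5.98 and -5.32 in REF. It was well above background on every array, but its REF signal was dim, which makes the size of its rise uncertain. CYB2, the lactate dehydrogenase that carries a cytochrome b, rose by 3.20 ± 0.11. It read 2.26, 2.31 and 2.19 in BH13 and -0.80, -1.17 and -0.88 in REF. SCS7, a sphingolipid hydroxylase with a cytochrome b5 domain, fell by 2.06 ± 0.08, and it read -1.17, -1.15 and -1.07 in BH13 and 0.85, 0.91 and 1.02 in REF.

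**Figure D4:**
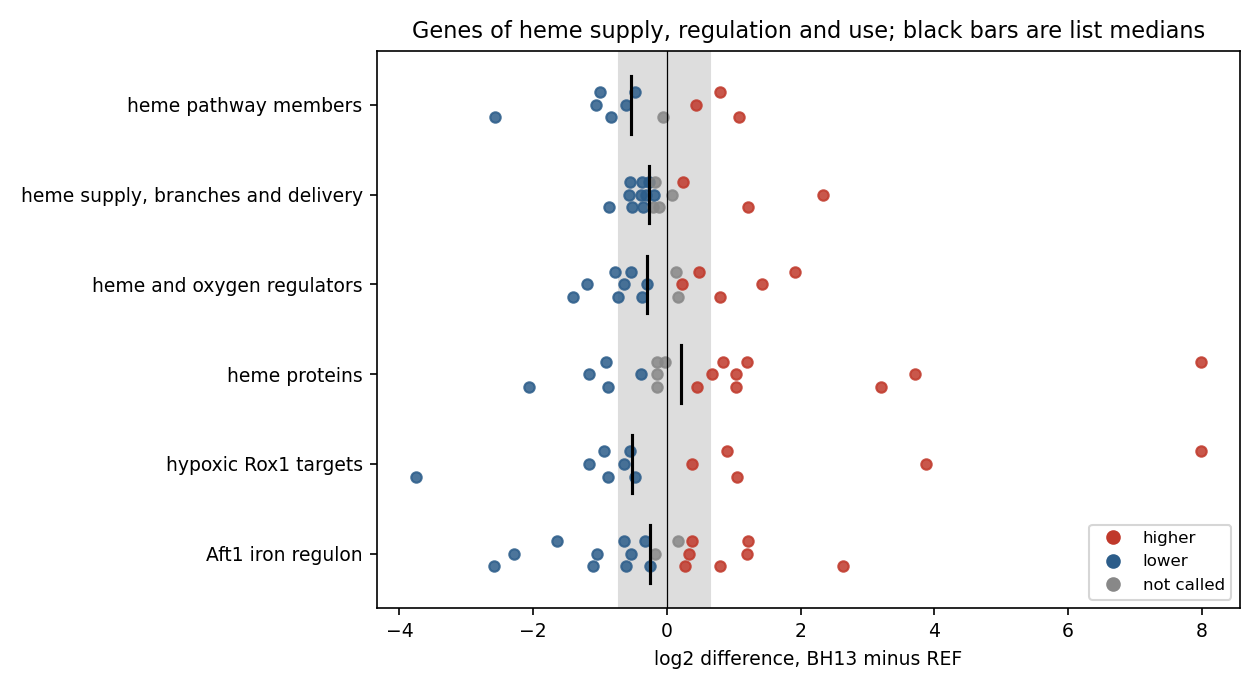
Log2 difference between BH13 and REF for the heme pathway genes and 5 lists of related genes. Each point is 1 gene, red for higher, blue for lower and grey for not called, black bars are list medians, and the grey band spans the middle of all tested genes. Every list holds genes on both sides of 0, and CYC7, which is in the lists of heme proteins and of hypoxic targets, is furthest to the right.

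HEM13 was among the hypoxic genes that were lower in BH13, with the smallest decrease of these. Its difference of -0.48 lay close to the list median of -0.51. Of 12 tested genes known as targets of Rox1, HEM13 among them, 5 were higher (41.7%) and 7 lower (58.3%), against 38.0% and 43.3% of all tested genes. COX5B, the hypoxic form of a cytochrome oxidase subunit, rose by 3.88 ± 0.14 besides CYC7, while TIR2, a cell wall mannoprotein, fell by 3.74 ± 0.11 and OLE1, the fatty acid desaturase, fell by 1.16 ± 0.13. HMX1 was higher, as were some other genes of the Aft1 iron regulon, while the high-affinity iron transporter genes FTR1 and FET3 were lower. Of 19 tested genes of the Aft1 iron regulon, HMX1 among them, 7 were higher (36.8%) and 10 lower (52.6%), against the same shares of all genes. Their median was -0.25, and with cyclic loess 6 were higher and 8 lower. The iron permease FTR1 fell by 2.58 ± 0.09, its ferroxidase partner FET3 fell by 2.28 ± 0.13 and the vacuolar permease FTH1 fell by 1.64 ± 0.11. ATX1, a copper chaperone, rose by 2.63 ± 0.26, with REF values spread from -0.43 to 0.80.

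The genes whose 6 values came closest to those of HEM12 were RNA14, PHM6 and FTR1. After each gene was centred on its own mean, their root mean square distances from HEM12 over the 6 arrays were 0.083, 0.107 and 0.112 on the log2 scale. For HMX1 the nearest were UBC7 at 0.029, SDH4 at 0.033 and MIM1 at 0.033. With 2 strains these distances mostly measure a like strain difference.

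**Figure D5:**
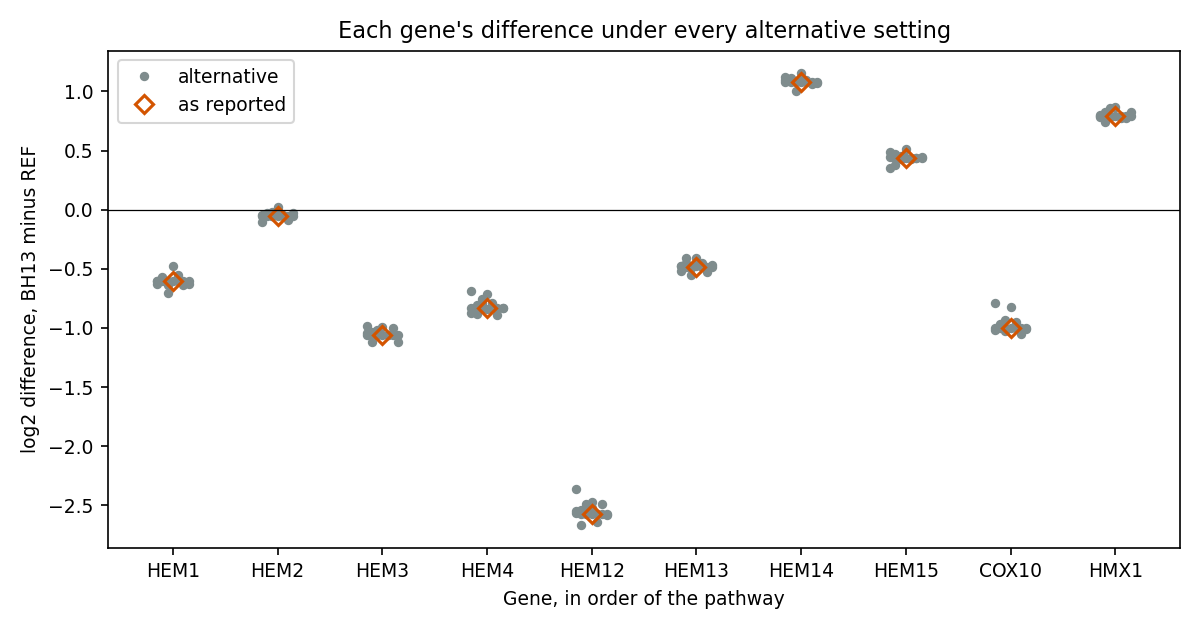
Log2 difference between BH13 and REF for each heme gene as reported (open diamonds) and under every alternative setting tried (grey points). All settings keep 9 of the genes on their side of 0, and HEM2 lies close to 0 under each.

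Other processing changed the call of no member. Under the alternatives HEM12 ranged from -2.67 to -2.36, HEM14 from 1.00 to 1.15, HEM13 from -0.55 to -0.41 and HEM15 from 0.35 to 0.51, and each stayed called. The authors' deposited table holds 1325 probes and 2 of the members. In the authors' deposited table HEM12 differed by -2.52 and HEM14 by 1.09 between the strain means.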

How the data were processed

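Agilent one-colour arrays were made from 200 ng of Cy3-labelled total RNA per sample, with RNA integrity numbers above 8 per the labels' protocols. Spot intensity in the deposited scanner files is linear and already has its background subtracted. The software was Agilent Feature Extraction, with version 10.7.3.1 in the file headers and version 9.1 in the submitters' processing notes. The authors' deposited table holds log2 values centred on each probe's median over the arrays. How it was filtered and scaled is not given in the sources used here. Its columns had medians of -0.58, -0.53 and -0.55 in BH13, and of 0.56, 0.60 and 0.52 in REF. Across its probes the strain differences had a slope of 1 against those from the scanner files, from the same arrays. Its smallest absolute strain difference was 0.916, so it holds only probes that differ strongly, and it serves here to settle scale and direction.

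Control spots and outlier spots were left out, log2 processed signals of a probe's 2 spots were averaged, and the 75th percentile of the array was subtracted. Probes well above background, in at least 1 spot, on 3 or more of the 6 arrays were tested, which left out 366. Each gene had 1 probe. Names and gene order came from the RefSeq table of assembly R64, which matched 5756 of 6256 open reading frames. The comparison used limma 3.58.1 (lmFit, eBayes) in R 4.3.3 and was two-sided, with Benjamini-Hochberg adjustment over all genes tested. The fit was checked on simulated data.

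Members, lists and tests were chosen with earlier results of these data known. The comparison of consecutive pathway steps and the run of genes from NRG1 to VMS1 were added after the values were seen. Named genes are all members, up to 4 called genes with the largest differences per list, HAP1, HAP4, ROX1, AFT1 and AFT2, the nearest gene on each side of a member, and the 3 nearest patterns to HEM12 and to HMX1. HEM25, COX15, MET1 and ADH2 were named after their values were seen. DAN1 and ARN2 did not pass the filter. Alternatives were normexp with an offset of 50 (on median signals, as the columns used hold no mean), median, quantile and cyclic loess scaling, other filters on dim probes and flagged spots, an intensity trend, replicate and slide blocks, the authors' table, and each array left out. Figures used matplotlib 3.10.9.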

Additional observations from a re-analysis of the deposited data

How the results depend on the processing

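Of 18 alternatives, 17 measured all 10 heme genes. In these 17, 9 of the 10 kept their direction and their call, and the counts of 3 higher and 6 lower members did not change. The other alternative, the authors' table, held only HEM12 and HEM14. It holds only probes that differ strongly on the same arrays, so their calls there add no support. HEM2, which was not called, changed sign to 0.026 with cyclic loess (limma adjusted p = 0.767), and its adjusted p ranged from 0.294 to 0.805. With cyclic loess the members' median was -0.44 and 6 genes of heme supply were lower instead of 10, and the median of all genes was 0.01 instead of -0.07. With normexp background correction the gap from HEM12 to HEM3 was 1.38, from HEM4 to HEM1 0.062 and from HEM15 to HMX1 0.44, and 0 post-diauxic markers were lower instead of 1. The causes of these moves were not tested. Without 1 array, HEM12 ranged from -2.67 to -2.49 and the members' median from -0.60 to -0.49. Deviations from the strain mean correlated across genes with r = 0.126, 0.242 and 0.003 for same-numbered samples. For samples with different numbers r ran from -0.213 to 0.0913. With 3 arrays per strain these values cannot show whether same-numbered samples shared a culture or a processing batch. With the replicate number as a block HEM12 was at -2.57, and no member's call changed. Slides differ within a strain only in REF, so the slide block tests no day effect. Signal over background limits COX10, HEM12 and HEM4 most, whose BH13 intensities were 275 to 553 units.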

Other observations

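Of the 20 nearest genes on either side of the 10 heme genes in the RefSeq gene order, 17 were tested, of which 9 were higher, 5 lower and 3 not called. That share lies near the 81.3% of all tested genes called, so it is no result about these neighbours. OYE3, an NADPH oxidoreductase gene beside COX10 on the same strand, rose by 4.32 ± 0.12 (limma adjusted p = 4.37e-08), while COX10 fell. On its other side MRPL40, a mitochondrial ribosomal protein gene, had a difference of -0.20 and was not called. COX20, a chaperone gene of cytochrome oxidase assembly that is divergent from HEM1, rose by 0.91 ± 0.12, and RTN1, convergent with HEM1, fell by 0.46 ± 0.13. YGL039W, a carbonyl reductase gene divergent from HEM2, rose by 0.85 ± 0.10, and YCX1, convergent with HEM3, rose by 0.36 ± 0.11. CAF20, a repressor of translation beside HEM4, fell by 1.22 ± 0.08, and RFM1, convergent with HEM4, rose by 0.80 ± 0.12. PRP22, a splicing helicase gene beside HEM14, fell by 0.46 ± 0.10. ALE1, divergent from HEM15, fell by 0.37 ± 0.11 and MPC54, convergent with it, rose by 0.90 ± 0.12. ENT2, an epsin gene divergent from HMX1, rose by 0.57 ± 0.13, while QRI5, convergent with HMX1, had a difference of -0.08 and was not called. BUD25, which overlaps HEM14 on the opposite strand in the RefSeq table, did not pass the filter on dim probes.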
